A study of Homo sapiens with 4 samples.

Results

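The BCL2 family decides at the mitochondrion whether a stressed cell lives or dies, and 10 of its genes were followed in 2 AT/RT-MYC cell lines before chemotherapy and in the cells that survived it. The 10 genes were listed by name and all of them were present among the 18066 genes with a nonzero total count. They comprise 5 anti-apoptotic members (*BCL2*, *BCL2L1*, *BCL2L2*, *MCL1*, and *BCL2A1*) and 5 pro-apoptotic members, of which 2 are effectors (*BAX* and *BAK1*) and 3 are BH3-only members (*BBC3*, *PMAIP1*, and *BCL2L11*). BT-16 and CHLA-266, established lines of atypical teratoid/rhabdoid tumors of the MYC subtype, each gave 1 untreated and 1 treated library. Treated cells had received 1 µM doxorubicin, 5 µM etoposide, and 1 µM vincristine on consecutive days, and the methods state that most cells died and that the resistant cells regrew over several weeks before harvest. The treated libraries thus describe cells long after the drugs, 1 culture per line, and in bulk RNA fewer expressing cells and less RNA per cell cannot be told apart.

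Anti-apoptotic members hold cells alive by binding their pro-apoptotic relatives at the outer mitochondrial membrane. BAX and BAK1 are the effectors that open this membrane and release cytochrome c, which starts the caspase cascade. BH3-only proteins sense stress such as DNA damage or loss of growth signals, and they either occupy the anti-apoptotic members or engage the effectors directly. Many of these proteins are also controlled by splicing, phosphorylation, and degradation, none of which gene-level counts show, so that the isoforms of *MCL1*, *BCL2L1*, and *BCL2L11* are summed here.

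The total count per library ranged from 49849257 to 75087193, and the 4 libraries held 15464 to 17815 detected genes. *MYC* had 6804 to 14275 counts in every library. *SMARCB1*, the gene whose protein AT/RT typically lack, had 827 to 1394 counts, so its RNA was present. Of 6 AT/RT-MYC markers, *MYC* (118 to 207 CPM, counts scaled to library size with TMM factors) and *CCND3* (118 to 222 CPM) were abundant and *HOXC9* had 2.56 to 5.16 CPM. The other 3, *HOXB2*, *HOXC10*, and *GPNMB*, had at most 0.246 CPM in untreated cells. After treatment *GPNMB* had 1.47 CPM in BT-16 and 2.58 CPM in CHLA-266, whereas *HOXB2* was at 0 in treated CHLA-266 cells. The MYC subtype is the label given with the cell lines and was not derived from these markers, few of which were abundant. All 8 markers of the other AT/RT subgroups together had 5.59 to 10.9 CPM, of which *GLI2* had 3.91 to 7.35 CPM. Of these 8, 4 were detected in untreated BT-16 and 6 in untreated CHLA-266 cells, and all 8 in each treated library. Genes of unrelated tissues were detected more often after treatment, and their part in the results was not tested. Of 14 such genes, 7 were detected in each untreated library (52 and 68 counts in all), whereas 14 were detected in treated BT-16 cells (904 counts) and 12 in treated CHLA-266 cells (556 counts). Of 343 olfactory receptor genes, 92 and 124 were detected before and 214 and 301 after treatment. In counts per kilobase of exon, 9 of the 10 members lay above the 95th percentile of the olfactory receptors (4.01 and 4.17 in untreated, 23.0 and 30.8 in treated libraries) in each library, and *BCL2A1* lay below it in each.

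Treated and untreated cells were compared by the quasi-likelihood test of edgeR over all 18066 genes, with the cell lines as replicates (n = 2 libraries per condition). Of the 10 members, 4 passed an adjusted *p* value under 0.05, namely *BAK1*, which was higher after treatment, and *BCL2*, *MCL1*, and *BAX*, which were lower. This is a share near that of all genes, of which 35.2% passed, with 16.1% higher and 19.1% lower. Among the 5 anti-apoptotic members 2 were lower and 3 did not pass, and among the 5 pro-apoptotic members 1 was higher, 1 was lower, and 3 did not pass. When the fit was blocked on cell line, 5 members passed against 41.6% of all genes, the additional one being *BCL2L11*, which was higher. In CPM, 8 of the 10 members did not overlap between the conditions, and 72.6% of all genes did not. *BCL2A1* is one of the 8, although its 1 to 4 counts per library differ in CHLA-266 by library size alone. With upper-quartile normalization the split was 3 higher and 2 lower, because *BCL2L2* and *BCL2L11* passed and *MCL1* did not. All genes had a median log2 fold change of 0.24, and of 0.59 under upper-quartile normalization, where 4361 genes were higher and 1895 lower instead of 2910 and 3454. The value of 0.24 included genes with few reads. In the same fit, the 12620 genes with 10 or more counts in each library, to which all members but *BCL2A1* belonged, had a median of -0.18. That selection leaves out genes that were near 0 in any library. For a single gene, an exact two-sided permutation test of 2 against 2 libraries cannot give a *p* below 0.333, and the calls rest on a spread that is shared across genes.

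**Figure D1:**
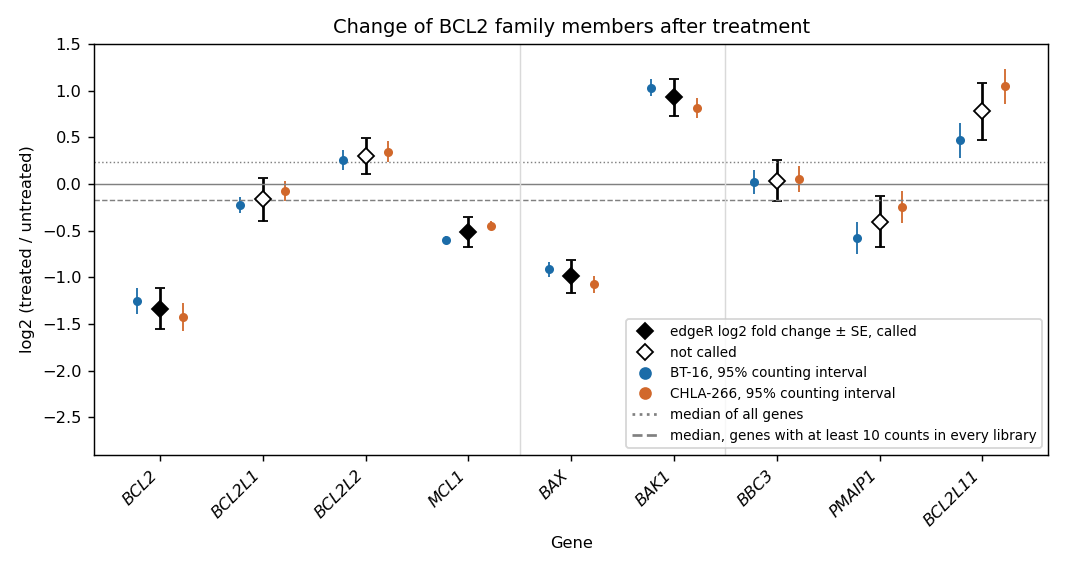
Change of each BCL2 family member after treatment on the log2 scale. Diamonds give the edgeR log2 fold change with its standard error (filled where the adjusted *p* was under 0.05), and circles give the ratio within BT-16 and CHLA-266 with the 95% interval from counting error. *BAK1* (0.93) lies above 0 while *BCL2* (-1.33), *BAX* (-0.99), and *MCL1* (-0.52) lie below it, the dotted line marks the median of all genes at 0.24, and the dashed line that of the genes with 10 or more counts in each library at -0.18. *BCL2A1*, with at most 4 counts in a library, is not drawn.

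The effectors moved in opposite directions. *BAX* (ENSG00000087088, chromosome 19 of hg38, 48954815 to 48961798, plus strand), which waits in the cytosol and inserts into mitochondria upon activation, went down from 4487 to 1994 counts after treatment of BT-16. For CHLA-266 the counts were 3641 before and 1460 after treatment. Both treated libraries were lower than both untreated libraries. The level in CPM (BT-16 first) was 65.1 and 59.2 before and 34.5 and 28.1 after treatment, a log2 fold change of -0.99 (standard error, SE, 0.18, edgeR adjusted *p* = 0.00394). *BAK1* (ENSG00000030110, chromosome 6, 33572547 to 33580293, minus strand), which resides in the mitochondrial membrane, rose with treatment, in BT-16 from 1501 to 2570 counts and in CHLA-266 from 1233 to 1828. Its level was 21.8 and 20.0 CPM before and 44.5 and 35.2 CPM after treatment, again without overlap of the conditions. The log2 fold change was 0.93 (SE 0.20, edgeR adjusted *p* = 0.00809). Both genes passed the threshold in all 9 alternative fits to 4 libraries and in each fit that left out 1 library, with adjusted *p* values of at most 0.0253 for *BAX* and 0.046 for *BAK1*.

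A ratio of genes within a library does not depend on the scaling between libraries. The ratio of *BAX* to *BAK1* counts was 2.99 in BT-16 before treatment and 0.776 after it, and for CHLA-266 these ratios were 2.95 and 0.799. It was thus lower, by 3.85-fold in BT-16 (log2 change -1.95, 95% interval from counting error -2.06 to -1.83) and by 3.70-fold in CHLA-266 (-1.89, -2.02 to -1.75). Per kilobase of exon, *BAX* made up 71.9% and 71.6% of the summed effector level before treatment and 39.9% and 40.6% thereafter. The summed level of both effectors went from 35.0 to 33.4 CPM per kilobase in BT-16, where each part changed by more than the sum, and from 31.9 to 26.8 in CHLA-266.

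The promoters of the members that passed a threshold are shown, and a link between their sequence and the changes was not tested. RefSeq (GRCh38.p14, the assembly also named hg38) promoters were matched by symbol for 8 of the 10 members, in 9 entries (not *MCL1* and *BCL2L2*). In the 250 bases before the start, both strands were searched for the E-box (CACGTG), the FOXO motif (GTAAACA), the AP-1 motif (TGANTCA), the CRE (TGACGTCA), and an exact p53 half-site. Capitals mark the matches, and sequences run 5′ to 3′ on the strand of the gene. The *BAX* promoter (chr19:48954625-48954874, plus strand) held 4 E-boxes, the *BAK1* promoter (chr6:33580277-33580526, minus strand) 1 p53 half-site, the *BCL2L11* promoter (chr2:111120664-111120913, plus strand) 1 FOXO motif, and the *BCL2* promoter (chr18:63319770-63320019, minus strand) no match to these letters.
BAX: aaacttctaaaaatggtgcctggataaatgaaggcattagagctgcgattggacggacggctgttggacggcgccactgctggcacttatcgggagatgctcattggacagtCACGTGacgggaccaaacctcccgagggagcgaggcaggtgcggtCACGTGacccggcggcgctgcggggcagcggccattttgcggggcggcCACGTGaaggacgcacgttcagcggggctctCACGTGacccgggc
BAK1: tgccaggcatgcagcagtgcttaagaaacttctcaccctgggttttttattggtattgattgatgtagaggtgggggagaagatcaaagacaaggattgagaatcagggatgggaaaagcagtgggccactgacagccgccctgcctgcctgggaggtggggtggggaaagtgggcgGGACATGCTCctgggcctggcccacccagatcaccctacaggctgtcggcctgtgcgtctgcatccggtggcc
BCL2L11: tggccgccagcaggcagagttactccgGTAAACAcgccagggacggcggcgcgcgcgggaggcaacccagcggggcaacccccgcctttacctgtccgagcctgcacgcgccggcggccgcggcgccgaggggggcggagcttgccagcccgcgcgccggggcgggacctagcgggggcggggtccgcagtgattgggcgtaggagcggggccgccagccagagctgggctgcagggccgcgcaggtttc
BCL2: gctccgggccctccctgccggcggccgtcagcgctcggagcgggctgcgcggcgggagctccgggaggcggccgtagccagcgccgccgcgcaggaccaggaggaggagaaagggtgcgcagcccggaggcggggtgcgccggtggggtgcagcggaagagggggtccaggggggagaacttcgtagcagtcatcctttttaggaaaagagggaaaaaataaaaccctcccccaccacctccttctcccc

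The E-boxes of *BAX* began at positions -138, -93, -45, and -14 relative to the start, the p53 half-site of *BAK1* at -73, and the FOXO motif of *BCL2L11* at -223. Of 35116 RefSeq promoters of this length, 6.34% held an E-box, 5.57% a p53 half-site, 2.98% a FOXO motif, 6.57% an AP-1 motif, and 1.65% a CRE. *BBC3*, whose level did not pass the threshold, held 1 E-box and 1 AP-1 motif. *BBC3* and *PMAIP1*, counted among the p53 targets below, held no p53 half-site in the searched bases. These matches describe the letters of the reference genome, and binding was not measured.

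Of the 4 anti-apoptotic members with enough counts for a fold change, *BCL2* had the largest decrease. *BCL2* (ENSG00000171791, chromosome 18, 63123346 to 63320128, minus strand), the founding member and target of venetoclax, dropped with treatment to 578 from 1640 counts (BT-16) and to 460 from 1461 counts (CHLA-266). Its level of 23.8 and 23.7 CPM before treatment was nearly equal in the cell lines, and it was 10.0 and 8.85 CPM after treatment. This corresponds to a 2.52-fold decrease (log2 fold change -1.33, SE 0.22, edgeR adjusted *p* = 0.00272), and *BCL2* passed in all 9 alternative fits to 4 libraries. Per kilobase of exon, *BCL2* had 45.8 and 36.5 counts in the treated libraries, which was above the 95th percentile of olfactory receptors there by less than for any other member except *BCL2A1*. Over the 4 libraries, the profiles closest to *BCL2* among the 12620 genes that reached 10 counts in all libraries were those of *XRCC5*, *TADA2A*, and *MAF1*. Their root mean square differences in centred log2 CPM were 0.0297, 0.0319, and 0.0332. As 969 genes (7.68%) had a Pearson correlation with *BCL2* over 0.99, 4 libraries hardly set these apart.

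*MCL1* (ENSG00000143384, chromosome 1, 150560895 to 150579738, minus strand), which encodes a short-lived protein that restrains BAK1, was the most abundant member in 3 of the 4 libraries per kilobase of exon. BT-16 cells had 11121 counts before and 6162 after treatment, or 161 and 107 CPM. CHLA-266 cells had 10374 counts before and 6437 after it, or 169 and 124 CPM. Both treated libraries were lower than both untreated ones. The log2 fold change was -0.52 (SE 0.16, edgeR adjusted *p* = 0.0366). This call was the least firm of the 4, since *MCL1* passed in 4 of 9 alternative fits, with adjusted *p* values from 0.00455 when edgeR blocked on cell line to 0.39 when it used upper-quartile normalization. It was also lost in edgeR without untreated BT-16 cells (adjusted *p* = 0.0972), without treated BT-16 cells (0.159), and without untreated CHLA-266 cells (0.140), where the log2 fold change stayed between -0.55 and -0.41. Other settings reduced it further, to -0.34 with at least 10 counts, -0.29 by library totals, and -0.17 by upper quartile.

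The other anti-apoptotic members did not pass the threshold. *BCL2L1* (ENSG00000171552, chromosome 20, 31664452 to 31723989, minus strand), which encodes BCL-XL, was counted 2491 times before and 1785 times after treatment of BT-16, and 1559 and 1249 times for CHLA-266. The conditions overlapped at 36.1 and 25.3 CPM before and 30.9 and 24.0 CPM after treatment. Its log2 fold change was -0.16 (SE 0.23, edgeR adjusted *p* = 0.593), and its sign turned under 2 other scalings (0.07 by library totals, 0.19 by upper quartile), so no direction is given. *BCL2L2* (ENSG00000129473, chromosome 14, 23298790 to 23311751, plus strand), which encodes BCL-W, kept nearly equal counts, 1353 before and 1354 after treatment of BT-16 and 1209 and 1298 for CHLA-266. In CPM this was 19.6 in both untreated libraries and 23.4 and 25.0 in the treated ones, without overlap. The log2 fold change of *BCL2L2* was 0.30 (SE 0.20, edgeR adjusted *p* = 0.249), and it was 0.48 with TMM factors from the 12620 genes alone (edgeR adjusted *p* = 0.0757). *BCL2A1* (ENSG00000140379, chromosome 15, 79960892 to 79971196, minus strand), which is known from leukocytes, had 1 count in each untreated library, 4 counts in treated BT-16 cells, and 1 count in treated CHLA-266 cells. These counts are too few for a fold change. Of 8 leukocyte markers, 6 and 7 were detected before and 8 and 7 after treatment, with a sum of 3.59 to 12.2 CPM. *CD3E* was at 0 in both untreated libraries and in treated CHLA-266 cells, and *CD14* was at 0 in untreated BT-16 cells.

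Of the 3 BH3-only members, 0 passed the adjusted threshold in edgeR. *BCL2L11* was the 1 member with an unadjusted *p* value under 0.05, and DESeq2 without the cell line called it. *BCL2L11* (ENSG00000153094, chromosome 2, 111119378 to 111168444, plus strand) encodes BIM, an activator that binds all anti-apoptotic members. Its counts were 438 before and 508 after treatment of BT-16, and for CHLA-266 they were 375 and 654. In CPM this was 6.35 and 8.79 for BT-16 and 6.09 and 12.6 for CHLA-266, so that both treated libraries were above both untreated libraries. The log2 fold change was 0.78 (SE 0.31, edgeR adjusted *p* = 0.0777), and 0.76 in the fit blocked on cell line (edgeR adjusted *p* = 0.0356). The gene passed in 6 of 9 alternative fits, with adjusted *p* values from 0.0206 to 0.0776. Of the fits without 1 library, it passed in the one without treated BT-16 cells (log2 fold change 1.02, edgeR adjusted *p* = 0.0352) and was weakest without treated CHLA-266 cells (0.51, 0.376). The log2 ratio in BT-16 alone was 0.47, with an exact Clopper-Pearson 95% interval of 0.28 to 0.66. In CHLA-266 alone it reached 1.05, with an interval of 0.86 to 1.23. These intervals do not overlap, but with 1 library per cell line and condition a difference between the cell lines could not be tested.

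*PMAIP1* (ENSG00000141682, chromosome 18, 59899996 to 59904305, plus strand) encodes NOXA, which binds MCL1 and promotes its loss. Counts went from 785 to 441 on treatment of BT-16 and from 690 to 492 for CHLA-266. Both treated libraries (7.63 and 9.47 CPM) were lower than both untreated ones (11.4 and 11.2 CPM). Its log2 fold change of -0.40 (SE 0.27, edgeR adjusted *p* = 0.269) did not pass the threshold. *BBC3* (ENSG00000105327, chromosome 19, 47220822 to 47232766, minus strand) encodes PUMA, a main p53 effector of cell death. BT-16 had 1120 counts before and 953 after treatment, or 16.2 and 16.5 CPM. CHLA-266 had 940 counts before and 824 after, or 15.3 and 15.9 CPM. The log2 fold change of *BBC3* was 0.04 (SE 0.22, edgeR adjusted *p* = 0.901), and the conditions overlapped.

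Not all reads of these genes can be assigned with certainty. The counting is not stated to use strand, and the exons of *BCL2L1* overlap the antisense gene *ABALON* over 41.3% of their length and those of *BCL2L11* overlap *MIR4435-2HG* over 10.8%. *BCL2L2* shares 16.8% of its exon length with the readthrough gene *BCL2L2-PABPN1*, which had 10 to 36 counts in the libraries.

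**Figure D2:**
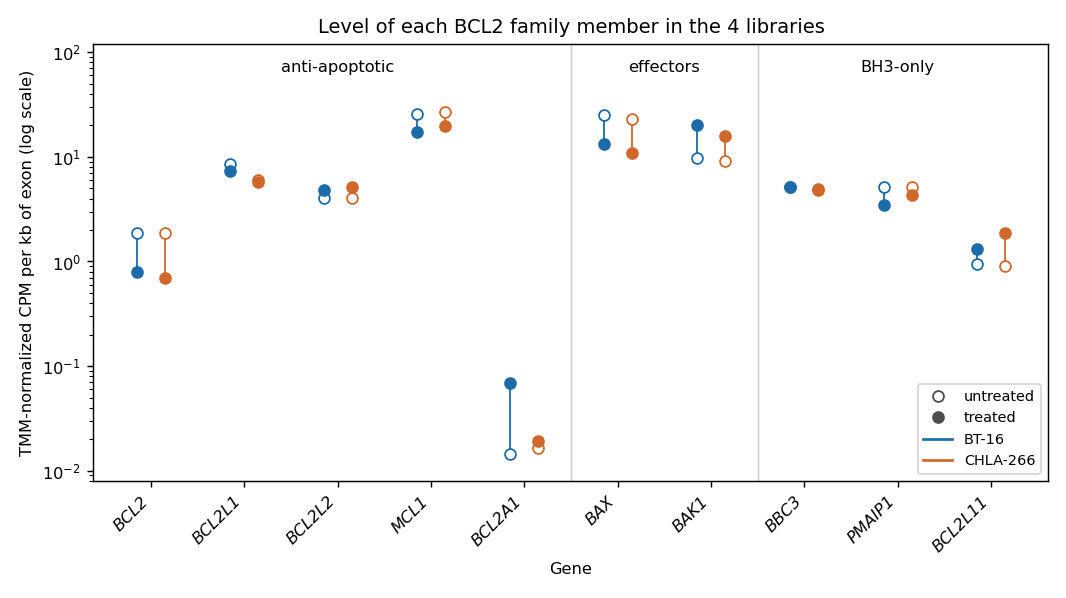
Level of each BCL2 family member in each library, in TMM-normalized CPM per kilobase of exon on a log axis. Open circles are untreated and filled circles treated libraries, with a line joining the libraries of one cell line. *BAX* and *BAK1* change places among the effectors (25.1 and 9.84 before, 13.3 and 20.1 after treatment of BT-16), and the circles of *BBC3* lie close together.

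Levels of different genes were compared per kilobase of exon. In untreated cells, *MCL1* (25.9 in BT-16 and 27.1 in CHLA-266, in CPM per kilobase) and *BAX* (25.1 and 22.9) ranked highest, followed by *BAK1* (9.84 and 9.06) and then *BCL2L1*. *PMAIP1* (5.21 and 5.13), *BBC3* (5.10 and 4.79), and *BCL2L2* (4.05 and 4.06) formed a middle group, and *BCL2* (1.89 and 1.88), *BCL2L11* (0.942 and 0.904), and *BCL2A1* ranked lowest. In treated cells, *BAK1* (20.1 and 15.9) and *MCL1* (17.1 and 19.9) overlapped at the top, and *BAX* (13.3 and 10.9) came after them. *BCL2L2* (4.84 and 5.16) and *BBC3* (5.18 and 4.98) overlapped as well. *BCL2L11* (1.30 and 1.87) stood above *BCL2* (0.793 and 0.702) after treatment in both cell lines, the reverse of their order before. The *BCL2* to *BCL2L11* count ratio was 3.74 before and 1.14 after treatment of BT-16, and 3.90 and 0.703 for CHLA-266. Exon lengths join all annotated transcripts, so that the level of a gene with long alternative ends is understated.

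Set against each other, the anti-apoptotic members had a median log2 fold change of -0.16, or -0.34 without *BCL2A1*. The pro-apoptotic members had one of 0.04. With 5 genes each, the values of -0.16 and 0.04 are those of *BCL2L1* and *BBC3*, which did not pass. Over all genes the median was 0.24, and over the 12620 genes with 10 or more counts in each library it was -0.18. The anti-apoptotic median, again the value of *BCL2L1*, turned to 0.07 by library totals and 0.19 by upper quartile, where the pro-apoptotic median was 0.27 and 0.39. The anti-apoptotic median also turned, with *BCL2L1*, without untreated BT-16 cells (0.12) and without treated CHLA-266 cells (0.02). Summed per kilobase of exon, anti-apoptotic members went from 40.5 to 30.2 CPM in BT-16, and in CHLA-266 from 39.1 to 31.5. Pro-apoptotic members had sums of 46.2 before and 43.4 after treatment of BT-16, and 42.7 and 37.9 for CHLA-266. The ratio of these sums went from 0.875 to 0.696 in BT-16 and from 0.914 to 0.831 in CHLA-266, lower after treatment in both. *MCL1* alone held 56.8% to 69.3% of the anti-apoptotic sum, and *BCL2* 4.66% and 4.82% of it before and 2.63% and 2.23% after treatment. No test was made on these sums.

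Within libraries, the balance depended on which pro-apoptotic member was taken. Of 20 pairs of an anti-apoptotic and a pro-apoptotic member (without *BCL2A1*), the ratio was lower after treatment in 11 and higher in 5, with 95% counting intervals that excluded 0 in both cell lines, and 4 pairs did not meet this in both. The same counts were found with halved counts. The pairs share genes and are not independent. Their intervals cover counting error only, with 1 library per cell line and condition. How many other pairs of genes would meet the same rule was not counted. Against *BAK1*, the ratio was lower for all 4 anti-apoptotic members. *MCL1* to *BAK1* was 7.41 before and 2.40 after treatment of BT-16, and 8.41 and 3.52 for CHLA-266. *BCL2* to *BAK1* was 1.09 before and 0.225 after treatment of BT-16, and 1.18 and 0.252 for CHLA-266. Against *BAX*, the ratio was higher for 3 members and lower for *BCL2*. *MCL1* to *BAX* was 2.48 before and 3.09 after treatment of BT-16, and for CHLA-266 it was 2.85 and 4.41. Against *BCL2L11*, 3 of 4 ratios were lower, and *BCL2L2* to *BCL2L11* was the one whose interval did not exclude 0 in BT-16 (log2 change -0.21, -0.43 to 0.0012).

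**Figure D3:**
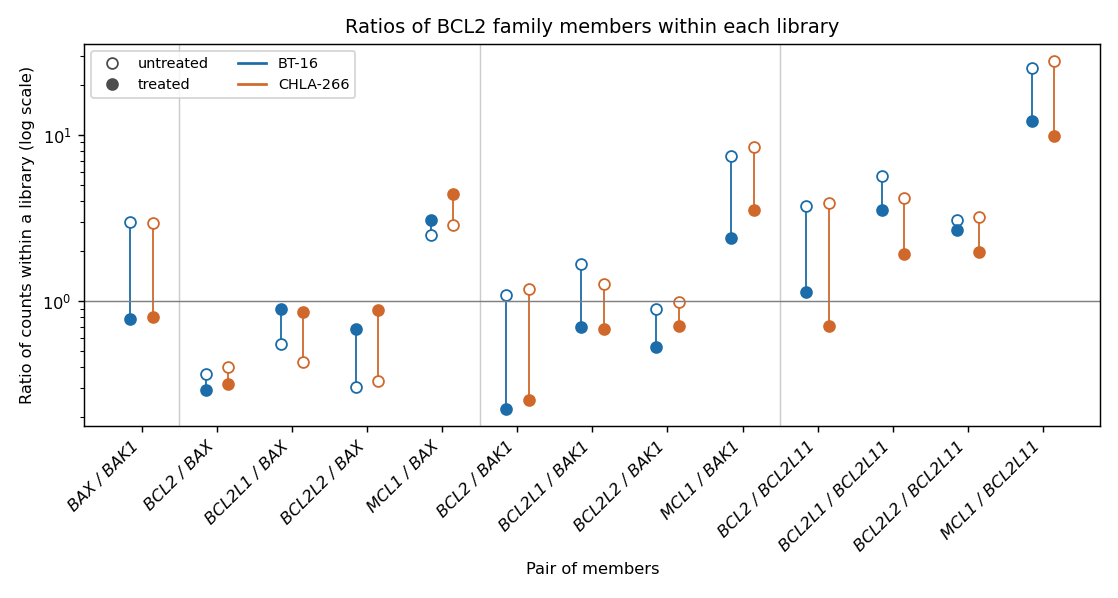
Ratio of the counts of 2 members within each library on a log axis, with open circles for untreated and filled circles for treated libraries. The ratio of *BAX* to *BAK1* passes from 2.99 to 0.776 in BT-16 and from 2.95 to 0.799 in CHLA-266, all 4 ratios to *BAK1* are lower after treatment, and 3 of the 4 ratios to *BAX* are higher.

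Of 13 other BCL2 family genes, 5 passed the threshold in edgeR, 1 of them higher and 4 lower, a share near the 35.2% of all genes. *BCL2L12*, which acts on caspases and p53, was lower after treatment, at 157 against 912 counts (BT-16) and 84 against 932 counts (CHLA-266) (log2 fold change -2.71, SE 0.36, edgeR adjusted *p* = 0.000884). *BOK*, a further effector relative, was likewise lower, at 468 against 2017 and 280 against 1209 counts (log2 fold change -1.86, SE 0.30, edgeR adjusted *p* = 0.00249). *BID*, the BH3-only protein that links death receptors to mitochondria, had a log2 fold change of -0.59 (edgeR adjusted *p* = 0.0339) and *BCL2L14* one of -1.11 (0.0359). *HRK*, a BH3-only gene known from neurons, was higher, at 963 against 711 counts (BT-16) and 891 against 623 counts (CHLA-266) (log2 fold change 0.73, edgeR adjusted *p* = 0.0394). The calls of *BID* and *BCL2L14* held in 4 and 5 of 9 alternative fits, and those of *BOK*, *BCL2L12*, and *HRK* in all 9. In each of the 4 fits without 1 library, 2 of the 13 passed, namely *BOK* and *BCL2L12*. *BAD*, *BIK*, *BMF*, *BCL2L13*, *BCL2L15*, *BNIP3*, and *BNIP3L* did not pass, and of these *BAD*, *BNIP3*, and *BNIP3L* each passed in 1 of 9 alternative fits (lowest adjusted *p* values 0.0433, 0.0478, and 0.0341). *BCL2L10* was at 0 in both untreated libraries and had 17 and 20 counts after treatment (edgeR adjusted *p* = 0.0561, passing in 3 of 8 alternative fits), below the 95th percentile of olfactory receptors per kilobase.

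In edgeR without a block, the mitochondrial, caspase, and inhibitor of apoptosis genes that passed were lower. Of 14 death receptor genes 12 did not pass, and those that passed went both ways. Of 10 genes of the mitochondrial membrane and intermembrane space, 6 were lower and 4 did not pass, with a median log2 fold change of -0.98. Beside this and the counts that follow, 35.2% of all genes passed, with 16.1% higher and 19.1% lower. *CYCS*, which encodes cytochrome c, was lower, at 9994 against 22847 counts (BT-16) and 7814 against 22670 counts (CHLA-266) (log2 fold change -1.11, SE 0.17, edgeR adjusted *p* = 0.00167). *VDAC1* and *VDAC3*, channels of the outer membrane, had log2 fold changes of -1.27 and -1.22, and *OPA1*, which shapes the cristae, one of -0.90. *VDAC2*, the channel known to hold BAK1, was counted 15028 times before and 11101 times after treatment of BT-16, and 14376 and 11643 times for CHLA-266 (log2 fold change -0.12, edgeR adjusted *p* = 0.583). Among 6 apoptosome and caspase genes, 3 were lower and 3 did not pass. *CASP2* was one of those that were lower (log2 fold change -1.11, edgeR adjusted *p* = 0.00259). Blocked on cell line, 5 of the 6 passed, as did 41.6% of all genes. The additional ones were *APAF1*, which was lower (edgeR adjusted *p* = 0.028), and *CASP9*, which was higher (0.046). Of 6 inhibitors of apoptosis proteins tested, *BIRC5*, which encodes survivin and is expressed in dividing cells, was lower, at 317 against 15510 and 328 against 10834 counts (log2 fold change -5.09, SE 0.21, edgeR adjusted *p* = 1.92e-06), and the other 5 did not pass. Of 14 death receptor genes, *TNFRSF10D*, a decoy receptor of TRAIL, was higher (1.14) and *CASP8* lower (-1.19, not passing without untreated CHLA-266 cells).

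**Figure D4:**
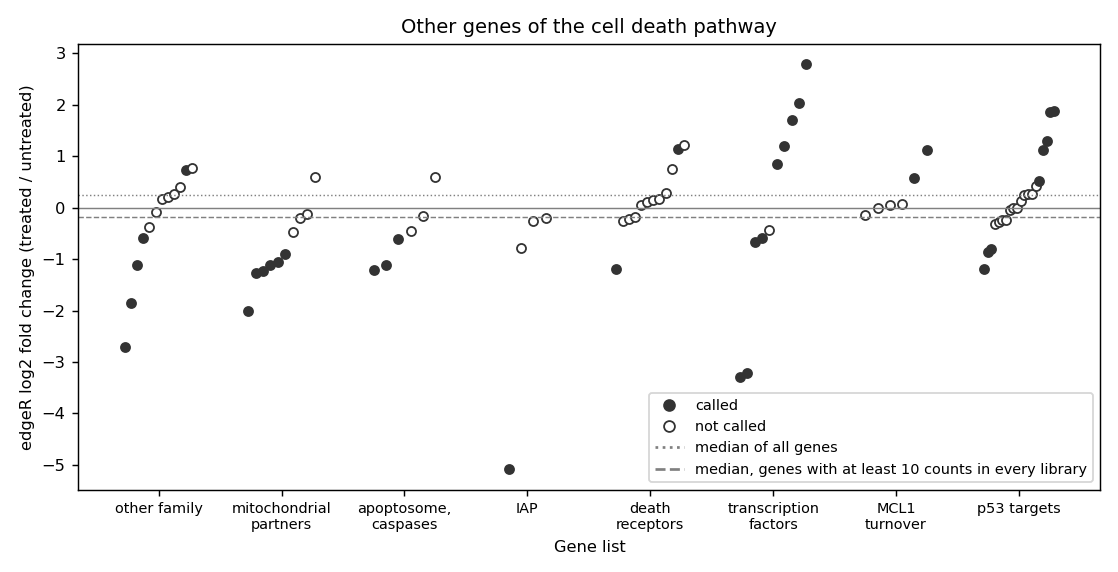
Log2 fold change in edgeR of the other genes of the cell death pathway, by list, for the 80 of 85 genes tested that had at least 10 counts in every library. Filled circles passed an adjusted *p* of 0.05, the dotted line is the median of all genes (0.24), and the dashed line is that of all genes with 10 or more counts in each library (-0.18). The mitochondrial and caspase genes that passed lie below 0, whereas transcription factors and p53 targets lie on both sides.

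Regulators of the family moved both ways. Of 10 transcription factors known to act on BH3-only genes, 9 passed, with 5 higher and 4 lower. Of all genes, 35.2% passed, with 16.1% higher and 19.1% lower. All 10 factors had at least 10 counts in every library, which many of all genes had not. The list was chosen with earlier results of these data known, so its share is not a test. *FOXO1* and *FOXO3*, which drive *BCL2L11* when growth signals are low, had log2 fold changes of 2.79 and 1.20 (adjusted *p* = 0.00508 and 0.00488 in edgeR). *FOXO3* reached 4257 counts from 2830 in BT-16 and 4150 counts from 1592 in CHLA-266. *DDIT3*, *ATF3*, and *JUN*, factors of the stress response, had log2 fold changes of 2.04, 1.71, and 0.85. *TP73* (-3.29) and *E2F1* (-3.21) were lower, as was *MYC* (-0.59), whose adjusted *p* value was 0.0289 in edgeR and reached 0.250 among the alternatives. Of 20 p53 target genes outside the family, 5 were higher, 3 were lower, and 12 did not pass, with a median log2 fold change of 0.07. The share that passed was near that of all genes. *CDKN1A*, *GDF15*, *GADD45A*, and *MDM2* were among those higher (1.88, 1.87, 1.29, and 1.12), and *DDB2*, *AEN*, and *FDXR* were lower (-1.19, -0.85, and -0.80). With upper-quartile normalization 13 of the 20 passed. The p53 targets within the family were likewise split, with *BAX* lower, *BAK1* higher, and *BBC3* and *PMAIP1* not passing. Of 6 genes tested that act on MCL1 protein, *FBXW7* (0.58) and *TRIM17* (1.13), which take part in its degradation, were higher, although fits without untreated BT-16 or untreated CHLA-266 cells called neither.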

How the data were processed

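Reads were trimmed with Skewer, aligned to hg38 with STAR, and counted per gene by the authors, who removed repeated genes and genes of the sex chromosomes. Of the listed cell death genes, *XIAP*, *HUWE1*, and *USP9X* were absent from the counts and could not be tested. The read counts per gene deposited by the authors carry no normalization and were handled as estimated counts and rounded, since 5 values in 2 genes were not whole. A deposited table of log2 values holds the variance-stabilized counts (VST) of the authors.

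The main test was edgeR 4.0.16 (quasi-likelihood, TMM, Benjamini-Hochberg over 18066 genes) in R 4.3.3, on condition only. Standard errors were obtained from the log2 fold change and its F statistic. Alternatives were a block on cell line, DESeq2 1.42.0, other scalings and filters, limma 3.58.1 on VST values, and each library left out. Libraries are paired by cell line, and over 12620 genes the deviations of paired libraries correlated at 0.321. Intervals cover counting error only. Low counts were mostly even, as when each mate is counted, so halved counts were tried as an alternative chosen after seeing the data. CPM and ratios within a cell line use TMM library sizes, and 0.5 counts were added in these ratios. Intervals of pair ratios are normal approximations on the log scale.

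Members and lists were chosen with earlier results of these data known. All 10 members and all 13 other family genes are named, and from each other list the genes of smallest adjusted *p*, up to 4 (6 for p53 targets). *XRCC5*, *TADA2A*, and *MAF1* are the 3 profiles closest to *BCL2*. *VDAC2*, *CASP9*, *FOXO1*, *FOXO3*, *JUN*, *MYC*, and *FDXR* were added after their values were seen. Some genes of these lists are not reported here. Exon lengths are from GENCODE 44. The fits were tried on simulated data that had no cell line effect and a smaller spread than these data. That trial does not show how the fits perform on these data.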

Additional observations from a re-analysis of the deposited data

Results flagged for a closer look

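For some genes outside the 10 members the ratio of treated to untreated counts had opposite signs in the cell lines, and 5 of them are described here. The difference was not tested, with 1 library for each line and condition. Further listed genes, such as *FAS* and *CFLAR*, also had opposite signs. Genes of the other lists were included where both 95% counting intervals excluded 0, which was the case for *SESN2*, a p53 target, and *GSK3B*, a kinase that marks MCL1 for degradation. The log2 ratio of *SESN2* was -0.42 in BT-16 (-0.49 to -0.35) and 0.39 in CHLA-266 (0.31 to 0.47). The log2 ratio of *GSK3B* was -0.18 in BT-16 (-0.23 to -0.13) and 0.13 in CHLA-266 (0.08 to 0.18), and in BT-16 it was 0.11 with library totals. For *BAD*, *BIK*, and *RNF7* 1 of the intervals included 0, so that an opposite change is not shown. The log2 ratio of treated to untreated *BAD*, a BH3-only gene, was -0.067 in BT-16, with a 95% interval (exact, Clopper-Pearson) of -0.16 to 0.03, and 0.58 in CHLA-266 (0.48 to 0.69). With DESeq2 size factors the ratio of *BAD* in BT-16 was 0.03. That of *BIK*, with 25 to 38 counts per library, was 0.77 in BT-16 (0.0048 to 1.58) and -0.29 in CHLA-266 (-1.08 to 0.45). That of *RNF7*, part of a ubiquitin ligase, was -0.023 in BT-16 (-0.09 to 0.04) and 0.16 in CHLA-266 (0.08 to 0.23), and 0.08 in BT-16 with DESeq2 size factors.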

How the results depend on the processing

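The number of all genes passing ranged from 4806 to 7557 over 9 alternative fits to 4 libraries, that of members from 3 to 5, and that of the pathway lists together from 33 to 40 (36 of 85 in the main test). With cell line as the pairing block in edgeR, 5 members and 7522 of all genes passed, *BCL2L11* being the call gained. In DESeq2 the block lost that call (adjusted *p* = 0.0776 against 0.0313 without it), and 4 members and 7100 genes passed. The anti-apoptotic median of -0.16 became 0.19 with upper-quartile normalization, 0.074 with library totals, -0.30 with the filter of edgeR, and -0.34 without *BCL2A1*, and ranged from -0.40 to 0.12 with 1 library left out. The pro-apoptotic median of 0.04 became 0.11 with DESeq2 size factors in edgeR and with DESeq2 with or without the replicate block, 0.39 with upper-quartile normalization, 0.27 with library totals, 0.22 with at least 10 counts in every library, 0.073 with the filter of edgeR, and 0.085 in limma on VST values, and ranged from -0.0058 to 0.083 with 1 library left out. *BCL2L1* changed sign with upper-quartile normalization (0.19), library totals (0.074), and the filter on 10 counts (0.026), without untreated BT-16 cells (0.12), and without treated CHLA-266 cells (0.02), and within BT-16 its ratio was 0.064 with library totals. *BBC3* ranged from -0.0058 to 0.083 with 1 library left out, the former without untreated CHLA-266 cells. The log2 ratio of summed anti-apoptotic to pro-apoptotic levels, -0.19 before and -0.52 after treatment of BT-16 and -0.13 and -0.27 for CHLA-266, was 1.00, 0.61, 1.09, and 0.84 without division by exon length. Of the 13 other family genes 5 passed, but 3 with library totals, with at least 10 counts, and in DESeq2 with the block. All genes lower after treatment numbered 3454, and 1895 with upper-quartile normalization. The causes were not tested. *BCL2A1* had too few counts for the filters and the VST values.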
